A study of Hordeum vulgare with 8 samples.

Results

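MLOC_69623.1, MLOC_69624.1 and AK356405 are 3 barley transcripts listed for the segregating awn-length region on chromosome 7HL, and in each of them both near isogenic lines (NILs) were called homozygous for an allele other than the reference. They are 3 of the 40344 transcripts with a site in the deposited variant table, and 3 of the 64 genes of the region's list of 123 genes that had any site in it. The 3 transcripts were chosen by their genotype calls at single-nucleotide sites that passed the authors' filter with at least 5 reads in each line, so those calls are given below as a description and without a test. All 36 sites listed for them, whatever the filter result, are accounted for. Whether cv. Morex itself carries these alleles was not analysed here.

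The study compared the shoot apex RNA of NILs that differ at the awn-length QTL AL7.1, between 132.01 and 134.21 cM on the POPSEQ map. The line e35RD was homozygous for the allele of HID382, a wild barley of ssp. agriocrithon designated D, and had short awns, whereas e35RM was homozygous for the Morex allele and had long awns. Both lines were selected from the recombinant, heterozygous family DM1-e35R, which descends from crosses and backcrosses of wild barleys to Morex, and both therefore share what that family had fixed elsewhere, including the wild allele of vrs1 that gives spikes with fertile central spikelets only. Plants of both lines were grown in the greenhouse with 16 h of light at 22 °C and 8 h of darkness at 18 °C, and apices were pooled at Waddington stage 5.5 (W5.5). Each line had 4 libraries, but the table holds 1 pooled column per line, so no value below has a replicate error, and each line stands for 1 derivation from 1 family. Over 140560 sites the summed read depth was 2059680 in e35RD and 2050613 in e35RM, with 110751 sites called in e35RD and 110746 in e35RM.

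NILs taken from a heterozygous family differ in the segment that was still segregating and share everything that was already fixed. A gene in the segment is thus expected to show opposite alleles in the lines wherever the parents differ in it, while a site that is non-reference in both lines separates both of them from the reference gene set rather than from each other. Awns are the needle-like extensions of the lemma, and at W5.5 the floral organs on the young spike are being formed.

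The best Arabidopsis hit of MLOC_69623.1, a high confidence (HC) gene, is the kinase ATAXIA TELANGIECTASIA-MUTATED AND RAD3-RELATED (ATR). In Arabidopsis, ATR senses stalled replication forks and single-stranded DNA, and signals to halt the cell cycle while damage is repaired. AK356405, also HC, has as its best Arabidopsis hit PLASTIDIC TYPE I SIGNAL PEPTIDASE 1 (PLSP1), which in Arabidopsis removes targeting signals from proteins of the plastid envelope and the thylakoid and is needed for thylakoid development. MLOC_69624.1 is a low confidence (LC) gene without an annotated function or a hit in rice or Brachypodium. In the study's list, MLOC_69623.1 and MLOC_69624.1 stand at the distal end of the region, inside the fine-mapped interval of 66 genes, and AK356405 stands at the proximal end, outside it.

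MLOC_69623.1, the ATR-like gene, carried the other allele in both NILs at all of its 10 listed sites, and not a single reference read was seen in either line. All 10 sites passed the authors' filter. They ran from position 213 to position 7675 of the transcript, a span of 7462 bases, and 9 of them were transitions and 1 a transversion. Positions are counted from 1 at the start of the transcript sequence, with the reference base written first and the other base last.

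Near the start of MLOC_69623.1, T213C was covered by 13 reads in e35RD and 8 reads in e35RM, all with the other allele. A577G had 12 reads in e35RD and 16 in e35RM, and A1677G had 19 in e35RD and 18 in e35RM. C2844T had 15 reads in e35RD and 14 in e35RM. The lines lay within 5 reads of each other at each of these sites, with e35RD above e35RM at 3 and below it at 1. Further along, G4896A had 22 reads in e35RD and 26 in e35RM, G6195T had 22 in e35RD and 21 in e35RM, and C6768T had 25 in e35RD and 19 in e35RM. Among the last sites, C7422T had 16 reads in e35RD and 20 in e35RM, G7617A had 25 in e35RD and 13 in e35RM, and G7675A had 14 in e35RD and 10 in e35RM. Over the transcript e35RD had the greater depth at 7 sites and e35RM at 3, and the other allele was read 183 times in e35RD and 165 times in e35RM.

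The depth limited how pure these sites could be shown to be. At G4896A, the site with the greatest depth summed over both lines, the share of the other allele was 100% with an exact 95% Clopper-Pearson interval of 84.6 to 100% in e35RD and of 86.8 to 100% in e35RM. At T213C, the shallowest, the interval was 75.3 to 100% in e35RD and 63.1 to 100% in e35RM. A separate and simpler limit, taken as 3 reads of the depth where 0 were seen, put the reference allele at no more than 13.6% in e35RD and 11.5% in e35RM at G4896A, and at no more than 23.1% in e35RD and 37.5% in e35RM at T213C. Intervals and limits cover counting error only.

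**Figure D1:**
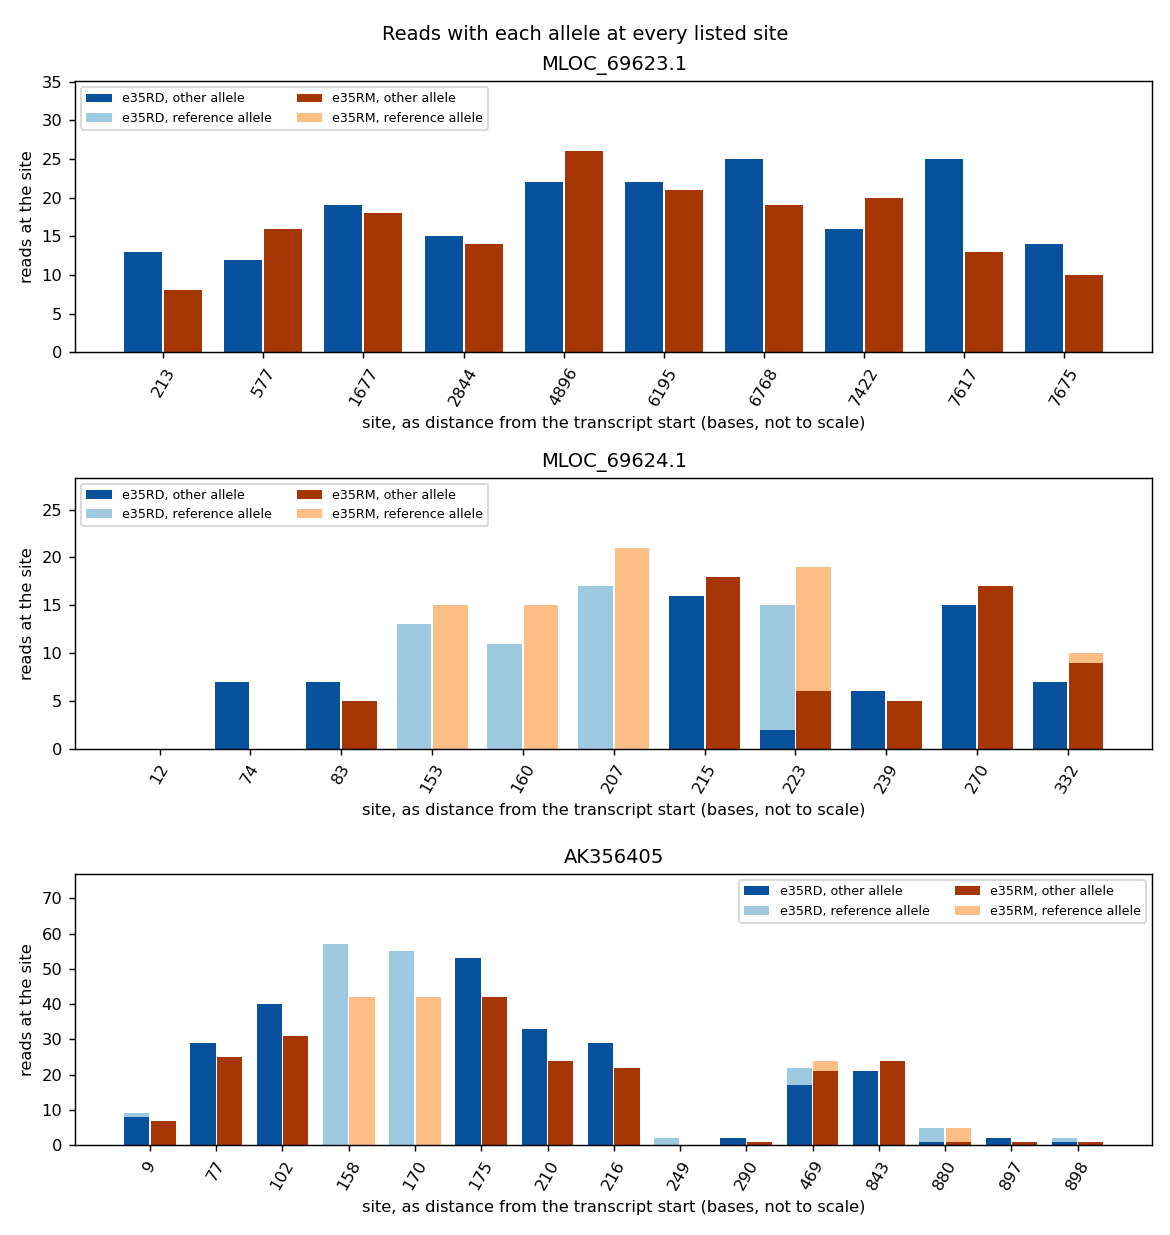
Reads with the other allele and with the reference allele (y axis, number of reads) at each listed site of the 3 transcripts (x axis, position in the transcript), with e35RD left of e35RM at each site. All 10 sites of MLOC_69623.1 hold only the other allele in both lines, whereas MLOC_69624.1 and AK356405 also hold sites with the reference allele in both lines and sites with both alleles.

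The sites of MLOC_69623.1 were spread over the transcript rather than packed together. Neighbouring sites lay 58 to 2052 bases apart, with a median gap of 654 bases and a mean gap of 829.1 bases. Of the 2955 transcripts with at least 4 sites fixed for the other allele in both lines, 99.6% had a smaller mean gap, and the median over them was 88.7 bases. A mean gap also grows with transcript length, which was not adjusted for, and these 10 sites spanned 7462 bases. The comparison took in fixed sites of any filter result, whereas all 10 sites here had passed. The rank is therefore no measure of an unusual spread of variants. A total of 8 of the 10 positions were divisible by 3, against 44.2% of the 17540 such sites in all transcripts with an MLOC identifier. The reading frame of the transcript was not used here, so a position divisible by 3 is not assigned to a codon position. The numbering of the table skips 1 row inside MLOC_69623.1, so its 10 sites may not be all that were called.

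Genotype quality, the phred-scaled score of a call that is capped at 99, followed depth closely in MLOC_69623.1. It was 39 in e35RD and 24 in e35RM at T213C, and 66 in e35RD and 78 in e35RM at G4896A. Divided by the reads behind it, the quality had a median of 3 in both lines, reached 3 per read at 8 of 10 sites in e35RD and 6 of 10 in e35RM, and was at least 2.36 in both lines. Over all fixed sites of the table with a quality below the cap, the median was 2.33 per read in e35RD and 2.31 in e35RM, and 23.6% of sites in e35RD and 22.7% in e35RM stood at 3 per read. The medians of the ATR-like gene thus stood above the upper quartile of those sites, which was 2.9 per read in e35RD and 2.89 in e35RM. The groups are unlike, because those sites were of any filter result. All 10 sites of the ATR-like gene had passed the filter, and such calls had chosen it.

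AK356405, the PLSP1-like gene, was non-reference in both NILs at 7 sites, but 4 other sites with at least 5 reads in each line held reads of the reference allele. Of its 15 listed sites, 9 passed the filter and 6 were marked as lying in a cluster of variants. A total of 11 had at least 5 reads in each line, and of these 7 were fixed for the other allele in both lines, 2 were fixed for the reference allele and 2 were heterozygous. The remaining 4 sites had fewer than 5 reads or no call in a line.

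The deepest fixed site of AK356405 was A175G, with 53 reads in e35RD and 42 reads in e35RM, all of the other allele. A175G was marked as lying in a cluster of variants and had not passed the filter. G102A was covered by 40 reads in e35RD and 31 in e35RM, T210G by 33 in e35RD and 24 in e35RM, and A216C by 29 in e35RD and 22 in e35RM, again without a reference read. Genotype quality was at the cap of 99 in both lines at A175G. A77G had 29 reads of the other allele in e35RD and 25 in e35RM, and T843C had 21 in e35RD and 24 in e35RM. At C9T, near the start of the transcript, e35RD had 8 reads of the other allele and 1 reference read, against 7 reads of the other allele in e35RM. That 1 read was the only reference read at a fixed site of the gene, and it left a share of 88.9% with an exact interval of 51.8 to 99.7% in e35RD. Over all transcripts 18.4% of fixed sites had a reference read in a line.

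Between these sites, the reference allele was as firmly fixed in both lines. G158A had 57 reads in e35RD and 42 in e35RM, and C170T had 55 in e35RD and 42 in e35RM, all with the reference allele and all at a genotype quality of 99. Like A175G, both were marked as clustered and had not passed the filter. The site fixed for the other allele at 175 thus lay 5 bases from a site of similar depth at which neither line carried it. A total of 5 of the 7 fixed positions were divisible by 3, beside 59.5% of the 15456 fixed sites in transcripts with an AK identifier.

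Both alleles were read in both lines at G469A of AK356405. In e35RD 17 reads had the other allele and 5 the reference allele, a share of 77.3% with an exact interval of 54.6 to 92.2%. In e35RM 21 reads had the other allele and 3 the reference allele, a share of 87.5% with an interval of 67.6 to 97.3%. The intervals overlapped, and the difference in share did not pass Fisher's exact test (unadjusted p = 0.451, two-sided). A880G was the reverse in balance, with 1 read of the other allele and 4 reference reads in each line, a share of 20%. The sites not counted were G249C, A290G, A897G and A898T, which had at most 3 reads in either line. The numbering of the table skips 2 rows inside AK356405.

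MLOC_69624.1, the LC gene, was fixed for the other allele in both lines at 4 of its 11 listed sites, and only 2 of these had passed the filter. Of the 11 sites, 4 passed, 4 were marked as clustered, 2 failed for low quality by depth and 1 for low quality. They lay within 320 bases, from position 12 to position 332. With at least 5 reads in each line, 9 sites remained, of which 4 were fixed for the other allele, 3 for the reference allele and 2 were heterozygous in a line.

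The fixed sites of MLOC_69624.1 were T215C, with 16 reads in e35RD and 18 in e35RM, and A270T, with 15 in e35RD and 17 in e35RM, together with C83G and a 3-base insertion at position 239. C83G was supported by 7 reads in e35RD and 5 in e35RM, with a genotype quality of 12 in e35RD and 3 in e35RM. The insertion was supported by 6 reads in e35RD and 5 in e35RM. Genotype quality per read at the 4 sites ranged from 1.31 to 2.25 in e35RD and from 0.6 to 3 in e35RM. All 4 values in e35RD and 3 of the 4 in e35RM lay below the table's median for the line, the exception being the insertion in e35RM.

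The reference allele was fixed in both lines at G153A, with 13 reads in e35RD and 15 in e35RM, at T160C, with 11 in e35RD and 15 in e35RM, and at G207C, with 17 in e35RD and 21 in e35RM. At G223T both lines were heterozygous, with 2 reads of the other allele and 13 reference reads in e35RD, against 6 of the other allele and 13 reference reads in e35RM. The share was 13.3% (exact interval 1.66 to 40.5%) in e35RD and 31.6% (12.6 to 56.6%) in e35RM. C332T had 7 reads of the other allele and none of the reference in e35RD and was called homozygous, whereas e35RM had 9 reads of the other allele and 1 of the reference and was called heterozygous at a quality of 7. The calls of the lines thus differed at C332T by 1 read. G74A had a call only in e35RD, with 7 reads of the other allele, and C12T in neither line.

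**Figure D2:**
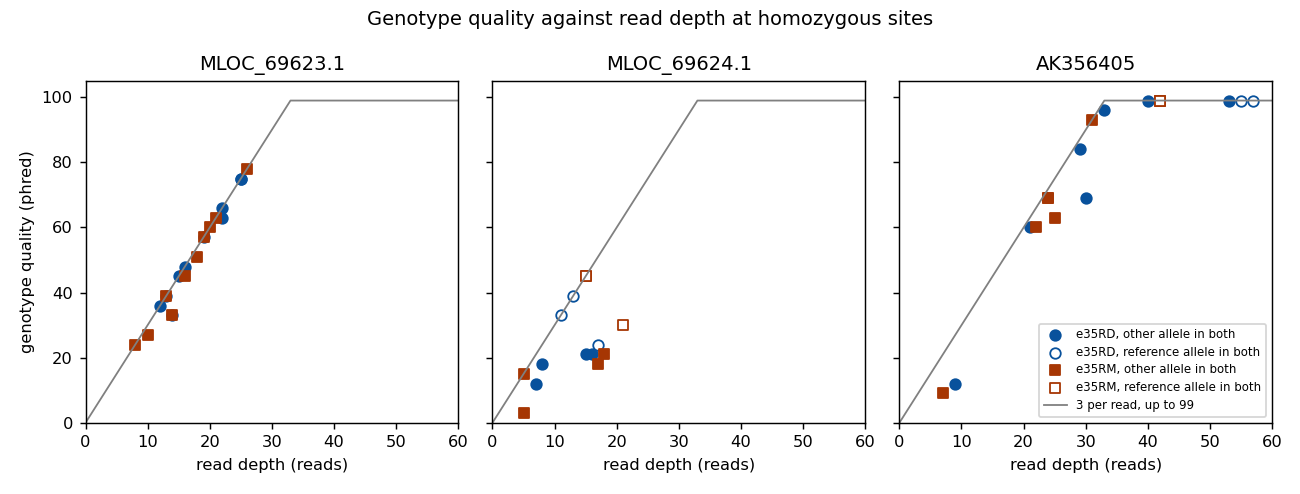
Genotype quality (y axis, phred scale, capped at 99) against reads at the site (x axis) for the sites of the 3 transcripts fixed for the other allele, or for the reference allele, in both lines. The points of MLOC_69623.1 lie at or just below a quality of 3 per read, whereas most fixed sites of MLOC_69624.1 lie well below it, down to a quality of 3 from 5 reads in e35RM at C83G.

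Of the 30 sites of the 3 transcripts with at least 5 reads in each line, 21 were fixed for the other allele in both, 5 for the reference allele in both and 4 were heterozygous in a line. No site had opposite homozygous calls. Of these 21, the 18 single-nucleotide sites that passed the filter are the calls that chose the transcripts. Among the 49873 sites of the whole table homozygous in both lines, 32996 were fixed for the other allele, or 66.2%, so a majority of the sites homozygous in both lines were of this kind. A total of 10234 of the 14456 transcripts with a homozygous call had at least 1 such site. The share was 63.6% of 9628 transcripts with an MLOC identifier and 85.2% of 4828 transcripts with an AK identifier, to which AK356405 belongs. Among the 519 transcripts with at least 10 fixed sites, 338 (65.1%) had, like MLOC_69623.1, no homozygous site of another kind.

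The 20 fixed single-nucleotide variants of the 3 transcripts comprised 15 transitions and 5 transversions, beside 64.2% transitions over 32157 such sites of the table. MLOC_69623.1 had 9 transitions and 1 transversion, AK356405 had 5 and 2, and MLOC_69624.1 had 1 and 2. The insertion in MLOC_69624.1 was 1 of 759 fixed insertions and deletions in the table, which made up 2.3% of fixed sites. The 3 inserted bases are a whole number of codons in length, but the reading frame there was not used.

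Whether the lines differed in allele share was tested at every site that reached 5 reads in both lines by Fisher's exact test on the reads of both alleles, with Benjamini-Hochberg adjustment over all 68713 sites. The test compares the pools of the lines. Over the table, 71 sites (0.103%) differed at an adjusted p below 0.05 with a share of at most 0.1 in one line and at least 0.9 in the other, and 78 sites (0.114%) passed on the adjusted p alone. The 18 passing sites that chose the 3 transcripts could not differ and say nothing here. Of the 12 other tested sites, 3 were fixed for the other allele but had failed the filter, 5 were fixed for the reference allele and 4 were heterozygous in a line. None of the 12 was called, but the 3 and the 5 fixed sites held reads of only 1 allele, so they could not differ either. Only the 4 heterozygous sites held reads of both alleles. None of them had a share of at most 0.1 in one line and at least 0.9 in the other, so none could be called. Their depth was also low, with 5 reads in each line at A880G of AK356405. Of the 4 sites, 0 had an unadjusted p below 0.05 by the exact test, and the lowest was 0.257, at G223T of MLOC_69624.1. Absence of a call at these sites is thus no evidence that the lines are equal there.

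The members can be placed against their neighbours in the region. A total of 27 listed genes had at least 1 site homozygous in both lines, with 145 such sites. At 79 of these, in 15 genes, the lines had opposite alleles, at 40 both had the reference allele and at 26 both had the other allele. The 3 transcripts held 21 of the 26, but calls of this kind chose them, so this count is no result about the members. In the fine-mapped interval, 70 of 110 sites in 16 genes were opposite and 19 were fixed for the other allele. In the rest of the region 9 of 35 sites in 11 genes were opposite and 7 were fixed for the other allele. All 7 were in AK356405, which such calls had chosen.

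**Figure D3:**
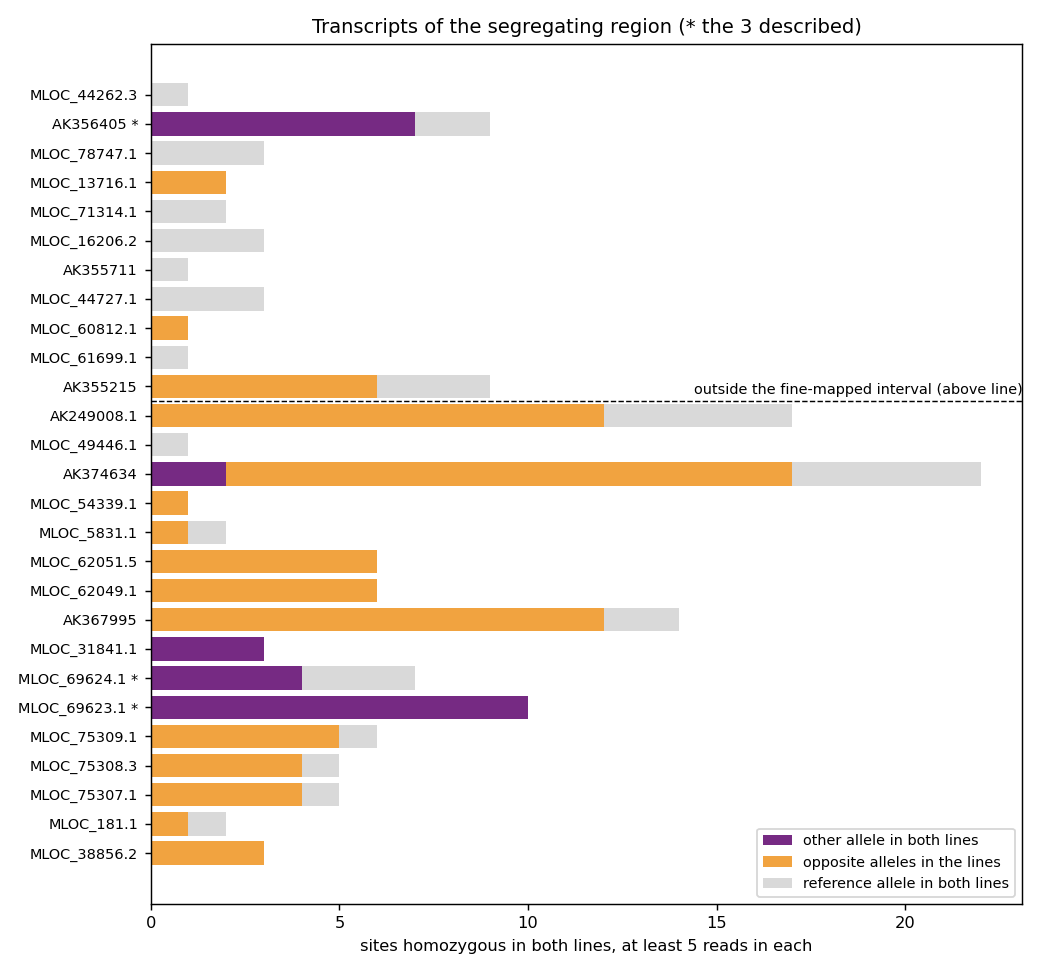
Number of sites homozygous in both lines (x axis) for each gene of the segregating region that has one (y axis, in the order of the study's list, proximal at the top), split by whether both lines carry the other allele, the lines carry opposite alleles or both carry the reference allele. MLOC_69623.1 and MLOC_31841.1 consist of sites with the other allele in both lines only, and 15 genes hold opposite sites.

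The other listed genes with a site fixed for the other allele in both lines were MLOC_31841.1 and AK374634. None of their shared sites had passed the filter, so both fell outside the choice. By the share of homozygous sites fixed for the other allele, MLOC_31841.1 was like the members, at 100%. AK374634 was not, at 9.09%, against 57.1% in MLOC_69624.1, the lowest of the members. MLOC_31841.1 had all of its 3 homozygous sites fixed, as MLOC_69623.1 had, but all 3 were marked as clustered. Its G56C and C57T each had 8 reads in e35RD and 12 in e35RM, and A89T had 11 in e35RD and 14 in e35RM. AK374634 had 2 of 22 homozygous sites fixed, T940G with 21 reads in e35RD and 31 in e35RM, and T942C with 21 in e35RD and 32 in e35RM, while 15 of its sites were opposite. Just inside the choice stood C83G of MLOC_69624.1, with its 7 reads in e35RD and 5 in e35RM.

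The study's list gives MLOC_69623.1 a best rice hit at the end of a run of 9 genes whose hits are neighbours in rice, a run picked out after its values were seen. Within it, 5 genes held 26 opposite sites, with 12 in AK367995, 5 in MLOC_75309.1, 4 each in MLOC_75308.3 and MLOC_75307.1, and 1 in MLOC_181.1. Next along the rice order came MLOC_7019.5, which had 3 listed sites but none that reached 5 reads in both lines, and MLOC_36853.1, which had no listed site. MLOC_69623.1 followed with 10 sites fixed and none opposite. The nearest gene in rice order with opposite alleles was thus separated from MLOC_69623.1 by genes without a usable site. The rice and Brachypodium hits of AK356405 lie outside this run, and the physical order of the barley genes was not used here.

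The depth of reads at the sites gives a rough view of transcript abundance, though duplicates had been removed and only variable positions are listed. Depth was averaged over single-nucleotide sites that had passed the filter and reached 5 reads in e35RD or e35RM, with 0 reads entered for a line without a call. By this measure MLOC_69623.1 had a mean depth of 18.3 reads in e35RD and 16.5 in e35RM, MLOC_69624.1 had 9 in e35RD and 8 in e35RM, and AK356405 had 26.3 in e35RD and 22.4 in e35RM. The log2 ratio of e35RD to e35RM was 0.15 for MLOC_69623.1, 0.17 for MLOC_69624.1 and 0.23 for AK356405. The value of MLOC_69624.1 rested on G74A, with 7 reads in e35RD and no call in e35RM, since over passing sites that reached 5 reads in both lines its ratio was −0.14. Counting sites of any filter result, e35RD had more reads at 2 of 9 sites and e35RM at 7. No test was made because the variant calls give 1 pooled value per line, and counts of single libraries were not used here. The study's replicate-based expression analysis named only MLOC_72272.1 and MLOC_54434.1 as differentially regulated, and it reported high variation between replicates. Less RNA per cell cannot be told apart from fewer expressing cells.

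Neither MLOC gene had a stable direction in depth, and the mean ratio of each member lay within the range of most transcripts. The exact intervals at the deepest sites were wide, each reaching past a 2-fold difference, so near-equality was not shown. At the deepest passing site of MLOC_69623.1 the ratio was −0.24 (exact interval −1.13 to 0.63), with 22 reads in e35RD and 26 in e35RM. At that of MLOC_69624.1 it was −0.18 (−1.29 to 0.91), with 15 reads in e35RD and 17 in e35RM, so the sign at the deepest site was the opposite of that of the mean in both genes. At that of AK356405 it was 0.37 (−0.35 to 1.09), with 40 reads in e35RD and 31 in e35RM. Among the 11006 transcripts that averaged 10 or more reads in e35RD or e35RM, 95% lay between −0.65 and 0.65 around a median of 0.00, and 212 (1.93%) were at least 2-fold apart. The 3 ratios lay inside that range, above 78% of these transcripts for MLOC_69623.1, 80.4% for MLOC_69624.1 and 85.4% for AK356405. MLOC_69624.1 was itself below the minimum of 10 reads.

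**Figure D4:**
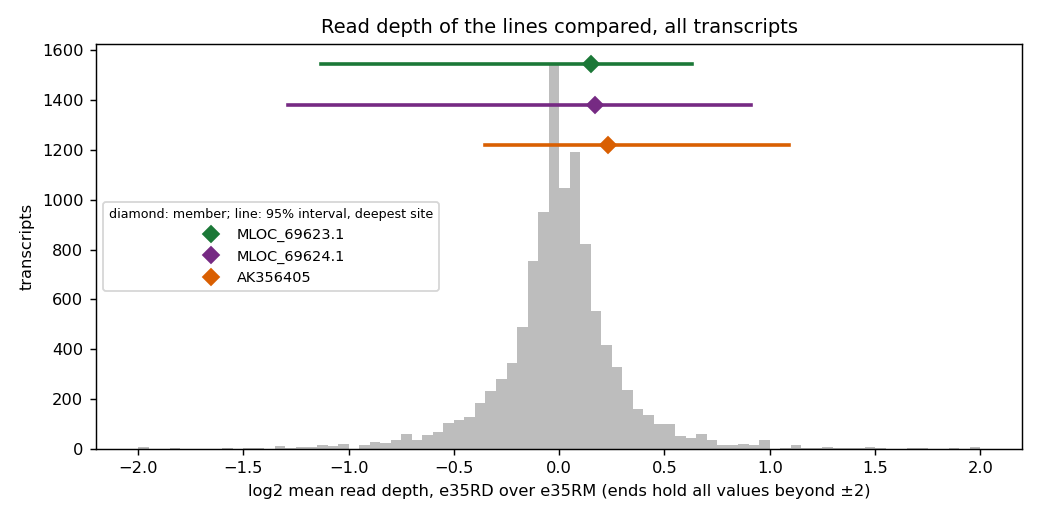
Number of transcripts (y axis) by log2 ratio of mean read depth, e35RD over e35RM (x axis), for 11006 transcripts, with the 3 members as diamonds at 0.15, 0.17 and 0.23 and the exact 95% interval at each one's deepest site as a line. All 3 intervals include 0.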

How the data were processed

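Variants were taken from a table that the authors deposited, with 1 pooled column per NIL for the 4 libraries of each. Per the study's methods, the authors trimmed single-end reads with Trimmomatic, aligned them with Bowtie2 2.1.0 to the barley HC and LC genes combined, handled files with SAMtools 1.2, removed duplicates with Picard 1.110, and realigned, called and filtered with GATK 3.1. Duplicate removal lowers depth most at abundant transcripts, and reads carrying many differences align less readily. The deposited read depths and allele depths are counts, and the deposited genotype quality is a score. A spreadsheet had turned genotypes into dates and dropped trailing zeros from allele depths, which were restored from the read depth. The 5 columns of cv. Morex, which is outside the sample list, were not used, so the alleles were not compared with Morex.

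Analyses were run in Python 3.11.15 with pandas 2.3.3, SciPy 1.17.1 and matplotlib 3.10.9. Sites needed 5 reads in each line. Fisher's exact test, two-sided, was adjusted by Benjamini-Hochberg over the whole table and tested on simulated data. Named genes are the 3 members and listed genes with a site fixed for the other allele, and any other was named after its values were seen. The members and lists were chosen with earlier results of these data known. Gene classes, order and hits come from the study's gene list. Of the 3 identifiers, 0 matched the RefSeq gene table, and no sequence was used. Alternatives were other filters, depths, qualities, shares and scalings.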

Additional observations from a re-analysis of the deposited data

How the results depend on the processing

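Of 46 recomputed values, 38 were counted as unchanged and 8 as moved. Values counted as unchanged still varied, and the depth ratios of both MLOC genes changed sign. In AK356405 the count of 7 became 10 with at least 1 read in each line, and 5 with allele shares from depths that needed no restoring. The 8 that moved were counts of sites fixed for the other allele. In MLOC_69623.1 the count of 10 became 2 under a minimum of 20 reads per line and 2 under a minimum genotype quality of 60. In MLOC_69624.1 the count of 4 became 2 with passing sites only, 2 with passing single-nucleotide sites only, 2 with at least 10 reads, 0 with at least 20 reads, 1 with a quality of at least 20 and 0 with a quality of at least 60. Higher minimums leave fewer sites by construction. Log2 depth ratios ran from −0.24 to 0.15 in MLOC_69623.1, from −0.18 to 0.17 in MLOC_69624.1 and from 0.22 to 0.37 in AK356405. MLOC_69624.1 also had −0.11 over all listed sites and −0.14 over sites with at least 5 reads in each line. No paired analysis was possible because the 4 libraries of each line stand pooled in 1 column, so no replicate was left out. Depth limits single sites, and at the shallowest of MLOC_69623.1 the exact interval reached down to 63.1% of the other allele in e35RM.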
